A study of Homo sapiens with 4 samples.

Results

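The 7 features described here are the 2 nuclear RNAs NEAT1 and MALAT1, the microRNA hairpin MIR612 that is annotated inside NEAT1, and the mRNAs of the paraspeckle proteins NONO, SFPQ, PSPC1 and RBM14. They were taken by name from the deposited tables, where all 7 of 7 were found among 20457 features. RNA was measured in 4 libraries of HEK293, an established human embryonic kidney cell line. In 2 libraries the cells had received a small interfering RNA (siRNA) against CNOT4 (siCNOT4), and in 2 a control siRNA (siControl), both at 10 nM for 72 h. The labels describe the control cells as wild type and the others as a CNOT4 knockdown, and place the study in the question of how CNOT4 bears on the effect of codon usage on expression. RNA was isolated as total RNA, treated with DNase and selected for poly(A) before stranded library preparation, which bears on nuclear RNAs whose ends lack a poly(A) tail.

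Paraspeckles are nuclear bodies built on NEAT1 RNA. The gene gives a short polyadenylated transcript and a long transcript from the same start, and it is the long one that scaffolds the body. The 3′ end of long NEAT1 and that of MALAT1 are made by RNase P cleavage and are protected by a triple helix rather than a poly(A) tail. NONO, SFPQ and PSPC1 belong to one family of RNA-binding proteins (Drosophila behaviour/human splicing, DBHS) that coat NEAT1, and RBM14 helps assemble the body. MALAT1 accumulates in the neighbouring nuclear speckles. CNOT4, the siRNA target, is an E3 ubiquitin ligase that works with the CCR4-NOT deadenylase.

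The targeted transcript CNOT4 was listed at 6.43 and 4.73 TPM (transcript level per length, scaled to a sum of 1000000 in each library) in siControl and at 3.38 and 3.81 TPM in siCNOT4, a ratio of means of 0.644. The 2 siCNOT4 libraries thus lay below both siControl libraries, as did 10.6% of all features tested below. On the TPM scale the nearest values of the groups differed by less than the siControl replicates did. Per 1000000 reads, recovered as described below, CNOT4 was at 17.1 and 15.3 in siControl and at 8.09 and 9.07 in siCNOT4. There the nearest values differed by more than the siControl replicates did. Of 7 markers of HEK293 cells, 6 reached 1 TPM in every library, while NEFM stayed below it. Their summed level was 1042 to 1387 TPM in the control libraries and 765 to 813 TPM after siCNOT4, with VIM at 916.5 and 650.1 against 368.6 and 353.6 TPM. Of 8 markers of other cells, 7 stayed below 1 TPM in every library and HBB and AFP were at 0 throughout. Summed, these 8 reached 1.16 to 1.53 TPM in the control libraries against 5.43 to 7.33 TPM after siCNOT4, most of it COL1A1, and the part of either sum in the results was not tested. The siControl replicates matched less closely (r = 0.975 across features on the log2(TPM + 1) scale) than the siCNOT4 replicates (r = 0.994), and siControl replicate 1 exceeded replicate 2 by a median of 0.38 on that scale. Over the 14208 features with a mean of at least 1 TPM, the log2 fold change (siCNOT4 relative to siControl) had a median of 0.50. Fold changes below are therefore also given minus that median. CNOT4 itself had -0.51 (SE 0.26), or -1.01 minus that median. It was not called in the limma fit described below (limma adjusted p 0.184).

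NEAT1 and MIR612 were higher in siCNOT4, NEAT1 by a factor of 2.25 and MIR612 by a factor of 12.2 between group means, whereas the other 5 features differed by factors of 0.977 to 1.31. The features were selected on the TPM values and fold changes of this same contrast, so these values are a description and carry no test. In bulk RNA of this kind, fewer cells of a type and less RNA per cell cannot be told apart. All 7 had a mean of at least 1 TPM and were kept in the fit. In the limma fit over all features, 2 of the 7, NEAT1 and MIR612, had a Benjamini-Hochberg adjusted p under 0.05, as did 12.6% of all tested features. Nothing is read from that count or from the counts of alternatives that follow. MIR612 rested on few siControl reads, given below. With a siControl mean of 1.07 TPM against 13.02 in siCNOT4, it met the alternative minimum mean of 5 TPM only through siCNOT4. NEAT1 was not called under 5 of 10 alternatives (no filter, a mean of at least 5 TPM, TMM scaling and without either siCNOT4 replicate), while MIR612 was called under all 10. Without siControl replicate 1, 6 of the 7 were called, as were 79.6% of all features. NEAT1, MIR612, MALAT1, SFPQ and RBM14 had both siCNOT4 libraries above both siControl libraries, as did 66.4% of all tested features. None of the 7 had both below, as 10.6% of features did, so 5 of 7 did not overlap, against 77.1% of all features in either direction. NONO and PSPC1 overlapped between the groups. Relative to the median of all features only NEAT1 and MIR612 lay above it, and the other 5 lay below.

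**Figure D1:**
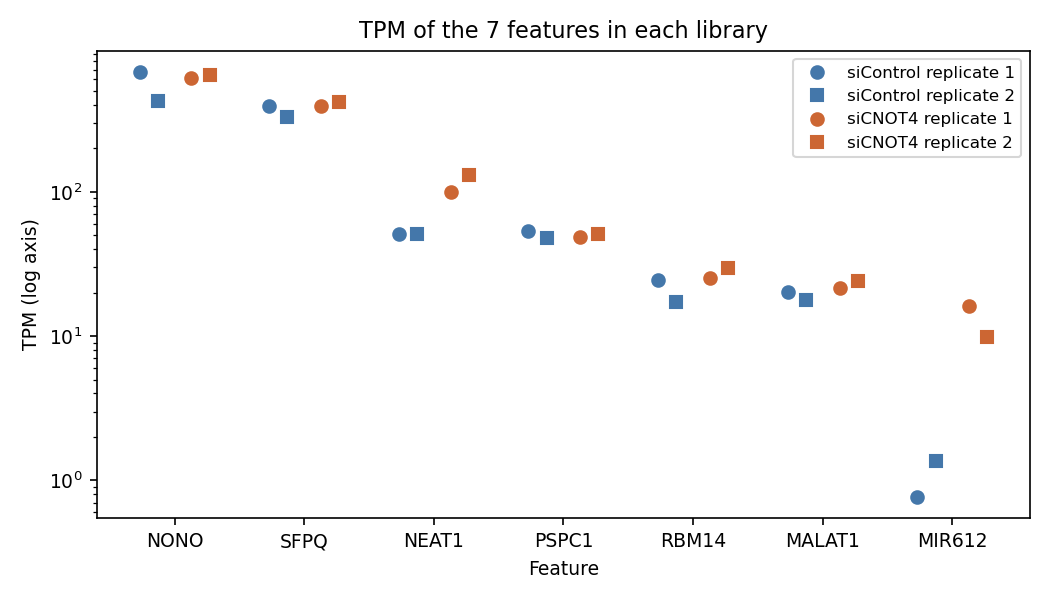
TPM on a log axis for each of the 7 features, with 1 point per library in siControl (n = 2) and siCNOT4 (n = 2). The NEAT1 and MIR612 points of siCNOT4 stand apart from those of siControl, while NONO and PSPC1 overlap.

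NEAT1 (chromosome 11) was at 51.1 and 51.0 TPM in the siControl libraries and at 99.9 and 129.9 TPM in the siCNOT4 libraries. On the TPM scale the siControl values were nearly identical and both siCNOT4 values lay well above them, with replicate 2 the higher. Scaled to recovered reads, as for CNOT4 above, NEAT1 was at 94.0 and 114.5 in siControl and at 165.6 and 214.6 in siCNOT4. The siControl replicates were less alike on that scale. The nearest values of the groups still differed there by more than the siControl replicates did. The group means were 51.0 ± 0.065 and 114.9 ± 21.3 TPM (SD, n = 2 each). The log2 fold change on the log2(TPM + 1) scale was 1.14 (SE 0.20), or 0.64 above the median of all features, and 11.8% of tested features had a larger one. Among the features of each library ordered by level, NEAT1 stood at place 3316 and 2742 in siControl and at place 1938 and 1459 in siCNOT4.

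MIR612 (chromosome 11) was at 0.772 and 1.36 TPM in siControl and at 16.2 and 9.84 TPM in siCNOT4. The siCNOT4 libraries were both higher than the siControl libraries, and replicate 1 was the higher of the pair, unlike for NEAT1. The means were 1.07 ± 0.416 and 13.02 ± 4.50 TPM (SD, n = 2 each), and the log2 fold change was 2.74 (SE 0.32). That was 2.24 above the median, and 4 features had a larger fold change. Of 182 microRNA features tested, 19 were called higher and 3 lower in siCNOT4, which is 12.1%. Their median log2 fold change was 0.54, and none lay above MIR612. MIR612 is itself 1 of the 182 and was chosen with its fold change known, so that place carries no test. By the recovery of reads described below, the 182 rested on a median of 26 reads over the 4 libraries, and MIR612 on 35.

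The tables give no read counts, but the TPM of a feature in the 4 libraries stood in whole-number ratios once the worth of 1 read in each library was divided out. That worth was calibrated on hairpins of known length, where 154 of 185 gave 1 common step (83.2%). The counts are the smallest whole numbers that fit to within 0.001 reads and give a whole length, so a true count could be a whole multiple of them. They placed 24472354 to 27797019 reads in each library, covering 95.5% to 96.7% of its TPM.

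Whether the authors counted single reads or read pairs is not given in the sources used here, and reads below means the unit they counted. MIR612 rested on 1 and 2 reads in siControl and on 20 and 12 in siCNOT4. A single read was worth 0.772, 0.680, 0.810 and 0.820 TPM of MIR612 in siControl replicates 1 and 2 and siCNOT4 replicates 1 and 2. The exact 95% Poisson intervals ran from 0.0195 to 4.30 TPM and from 0.165 to 4.91 TPM for siControl, and from 9.90 to 25.03 TPM and from 5.09 to 17.2 TPM for siCNOT4. Over the pooled reads, 32 against 3, the siCNOT4 to siControl ratio was 12.0 on the TPM scale (95% interval 3.76 to 61.4) and 9.78 per recovered read (3.06 to 49.9). Leaving out each library in turn gave 9.08 to 16.9 on the TPM scale. Such intervals cover counting error only, because they take reads and not libraries as the unit, and they are no test between the groups. Even the counting error may be understated, because PCR copies cannot be told from separate molecules when no identifiers were used.

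NEAT1 was measured on 2472 and 2801 reads in siControl and on 4603 and 5917 in siCNOT4. The intervals were 49.1 to 53.1 and 49.1 to 52.9 TPM against 97.0 to 102.8 and 126.6 to 133.3 TPM. The 2 siCNOT4 libraries therefore differed from each other by more than counting error, while the siControl intervals overlapped on the TPM scale. Pooled over the reads, the siCNOT4 to siControl ratio was 2.25 on the TPM scale (95% interval 2.18 to 2.33) and 1.83 per recovered read (1.77 to 1.89), counting error only.

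The whole-read arithmetic also returned the length by which each TPM was divided. For NEAT1 it was 3735 nt, and for MIR612 100 nt. In the GENCODE 29 annotation NEAT1 has 8 transcripts, the longest of 22743 nt and the other 7 of 512 to 3524 nt, and the shorter ones reach no further than 3716 nt from the long transcript's start. The MIR612 hairpin lies at 21661 to 21760 nt from that start, on the same strand, 95.2% of the way along and 983 nt from the end. It is therefore inside the long transcript and outside every shorter one, and a read there cannot be told apart as long NEAT1 or as the hairpin precursor. The long transcript is 6.09 times the counted NEAT1 length, so its own length was not the one used. Fragments of the long transcript away from its first part would be counted towards NEAT1 only if the annotation used by the authors, which is not given in the sources used here, covered them.

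**Figure D2:**
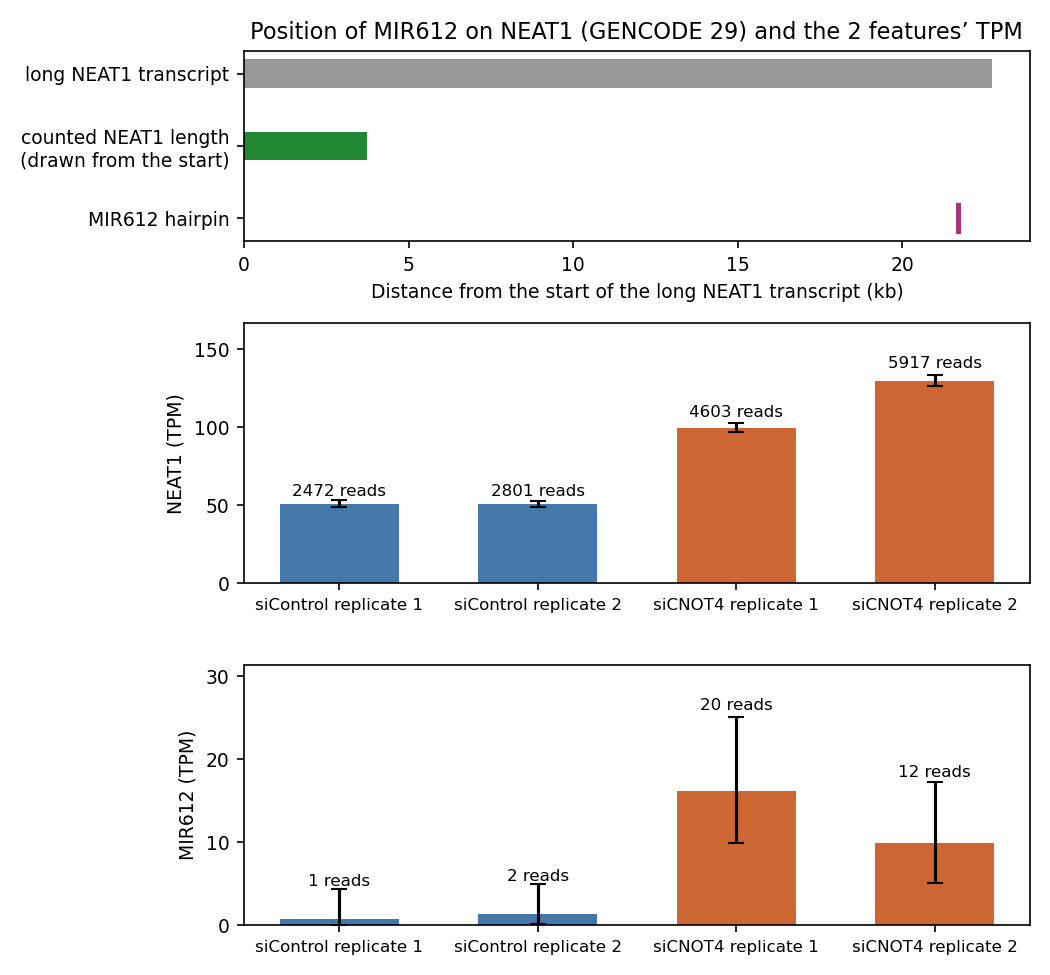
Top, position of the MIR612 hairpin on the long NEAT1 transcript (distance from its start in kb) with the counted NEAT1 length drawn from the same start; middle and bottom, TPM of NEAT1 and MIR612 in each library. Bars give the deposited values, whiskers the exact 95% Poisson intervals, and the numbers the recovered reads; the MIR612 siControl bars rest on 1 and 2 reads.

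Within each library the level of MIR612 was 0.0151 and 0.0267 of that of NEAT1 in siControl, and 0.162 and 0.0757 of it in siCNOT4. Both siCNOT4 ratios were above both siControl ratios, at 0.119 ± 0.061 against 0.0209 ± 0.0082 (SD, n = 2 each), a factor of 5.70. The siControl ratios carry the counting error of 1 and 2 reads. Because such a ratio is taken within a library, a common scaling of the library does not alter it.

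MALAT1 (chromosome 11) was next examined, the RNA that shares with long NEAT1 the RNase P-made end. It was at 20.0 and 17.7 TPM in siControl and at 21.7 and 23.9 TPM in siCNOT4. The groups did not overlap, and the distance between the nearest values of the groups was smaller than that between the siControl replicates. The means were 18.9 ± 1.63 and 22.8 ± 1.59 TPM (SD, n = 2 each), a ratio of 1.21. The log2 fold change was 0.26 (SE 0.24), or 0.24 below the median of all features (-0.24). It was measured on 2262 and 2273 reads in siControl and on 2329 and 2540 in siCNOT4, over a counted length of 8707 nt, and pooled over these reads the siCNOT4 to siControl ratio was 1.21 on the TPM scale (95% interval 1.16 to 1.26) and 0.985 per recovered read (0.945 to 1.03), counting error only. Such intervals take reads and not libraries as the unit, so they are no test between the groups. Leaving out each library in turn gave ratios of 1.14 to 1.28 on the TPM scale and 0.938 to 1.03 per recovered read. Per 1000000 recovered reads MALAT1 stood at 86.0 and 92.9 in siControl and at 83.8 and 92.1 in siCNOT4, where the groups overlapped.

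Relative to NEAT1 in the same library, MALAT1 was at 0.393 and 0.348 in siControl and at 0.217 and 0.184 in siCNOT4. Both siCNOT4 ratios lay below both siControl ratios, at 0.201 ± 0.023 against 0.370 ± 0.031 (SD, n = 2 each), a factor of 0.542. The listed level of NEAT1 per length therefore exceeded that of MALAT1 in all 4 libraries, and by more in siCNOT4. These libraries were selected for poly(A), which the ends of MALAT1 and long NEAT1 lack, and NEAT1 was divided by 3735 nt. The ratio is therefore not one of amounts in the cell, and the part of the selection in it was not tested.

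RefSeq promoter windows, from 250 bases before to 50 after an annotated start (GRCh38.p14), matched 4 of the 7 features: MALAT1, NONO, PSPC1 and RBM14. They are shown for MALAT1, which has starts of contrasting composition, and for NONO, the most abundant of the 7. They were searched on both strands for the TATA box TATAAA, the CCAAT box, the GC box GGGCGG, the E-box CACGTG and the cyclic AMP element TGACGTCA, which share no overlapping match in the printed windows. Capitals mark every match on either strand.
MALAT1, chr11:65497488-65497787, plus strand: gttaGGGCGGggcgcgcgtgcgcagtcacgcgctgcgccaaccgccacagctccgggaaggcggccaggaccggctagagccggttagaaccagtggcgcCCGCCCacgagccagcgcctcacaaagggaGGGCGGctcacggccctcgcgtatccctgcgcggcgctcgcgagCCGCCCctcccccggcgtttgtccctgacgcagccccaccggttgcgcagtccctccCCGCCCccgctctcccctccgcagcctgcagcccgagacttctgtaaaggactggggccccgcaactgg
MALAT1, chr11:65498795-65499094, plus strand: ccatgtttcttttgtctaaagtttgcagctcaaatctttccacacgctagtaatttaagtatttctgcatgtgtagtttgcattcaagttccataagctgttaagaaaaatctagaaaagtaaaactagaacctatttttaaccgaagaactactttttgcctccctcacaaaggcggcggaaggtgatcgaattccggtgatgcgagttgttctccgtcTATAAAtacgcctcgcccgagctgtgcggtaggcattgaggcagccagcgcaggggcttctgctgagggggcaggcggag
NONO, chrX:71283385-71283684, plus strand: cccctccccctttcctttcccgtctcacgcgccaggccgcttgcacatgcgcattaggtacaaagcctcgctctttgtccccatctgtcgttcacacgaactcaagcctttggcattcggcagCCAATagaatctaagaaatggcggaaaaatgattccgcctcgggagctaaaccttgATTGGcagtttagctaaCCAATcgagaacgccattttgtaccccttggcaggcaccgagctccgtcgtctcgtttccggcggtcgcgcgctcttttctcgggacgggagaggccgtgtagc

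The first MALAT1 window held 5 matches to GGGCGG and was 73.7% G or C. The second, 46.0% G or C, held 1 match to TATAAA and no other motif. NONO held 3 matches to CCAAT, as did RBM14, and the PSPC1 window held none of the 5 motifs. Over 35116 windows of the same length, 45.0% held GGGCGG, 34.6% CCAAT, 11.5% TATAAA, 7.26% CACGTG and 1.85% TGACGTCA. A match describes the letters of the window and is not a measured binding site.

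The group means of the 3 DBHS mRNAs and of RBM14 differed by factors of 0.977 to 1.31. NONO (chromosome X), which pairs with SFPQ or PSPC1 on NEAT1, was at 676 and 424 TPM in siControl and at 610 and 642 TPM in siCNOT4. The siControl replicates enclosed both siCNOT4 values, so the groups overlapped. The means were 550 ± 178 and 626 ± 22.9 TPM (SD, n = 2 each), and the log2 fold change was 0.22 (SE 0.23). In the order of levels it held places 169 and 303 among siControl features, then 184 and 175.

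SFPQ (chromosome 1), a splicing factor that NEAT1 can hold in the paraspeckle, was at 394 and 328 TPM in siControl and at 396 and 418 TPM in siCNOT4. The siCNOT4 libraries lay above siControl, but the lower of them exceeded the higher siControl library by far less than the siControl replicates differed from each other. The means were 361 ± 47.2 and 407 ± 16.0 TPM (SD, n = 2 each), with a log2 fold change of 0.18 (SE 0.15).

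PSPC1 (chromosome 13), the least abundant of the 3 DBHS mRNAs, was at 53.7 and 47.5 TPM in siControl and at 48.3 and 50.6 TPM in siCNOT4. The siCNOT4 values lay between the siControl values. The means were 50.6 ± 4.40 and 49.4 ± 1.63 TPM (SD, n = 2 each), with a log2 fold change of -0.03 (SE 0.19). Per 1000000 recovered reads, the median of all features rises by 0.26 rather than 0.50. On that scale PSPC1 was at 41.6 and 44.8 in siControl and at 33.7 and 35.1 in siCNOT4, both siCNOT4 values being the lower. The share of all features placed lower on that scale was not counted.

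RBM14 (chromosome 11) was at 24.6 and 17.1 TPM in siControl and at 25.1 and 29.6 TPM in siCNOT4. The lower siCNOT4 library barely exceeded siControl replicate 1. The means were 20.9 ± 5.25 and 27.4 ± 3.19 TPM (SD, n = 2 each), with a log2 fold change of 0.39 (SE 0.27). The tables hold a separate readthrough feature, RBM14-RBM4, which shares exons with RBM14, so the division of reads between them is uncertain. That feature was at 106 and 82.8 TPM in siControl and at 92.3 and 108 TPM in siCNOT4, with overlapping groups and a log2 fold change of 0.09.

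By group mean in siControl the order of levels per length was NONO, SFPQ, NEAT1, PSPC1, RBM14, MALAT1 and MIR612. NEAT1 and PSPC1 overlapped there, as did RBM14 and MALAT1, and the other neighbours in that order did not. In siCNOT4 the order of the means was the same, and no neighbours overlapped. NONO was 1.72 and 1.30 times SFPQ in siControl and 1.54 times it in each siCNOT4 library, so that ratio overlapped. NEAT1 was 0.0755 and 0.120 of NONO in siControl and 0.164 and 0.202 of it in siCNOT4, with no overlap. Against SFPQ it was 0.130 and 0.156, then 0.252 and 0.311, also with no overlap.

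The features whose profile over the 4 libraries lay nearest to a given one were found among 9554 features with a mean of at least 10 TPM, by Euclidean distance between centred log2(TPM + 1) values. For NEAT1 they were ZNF565 (distance 0.105), HLA-DRB5, RTN2, SNORD125 and ATP6V0D1. Of these, ZNF565, RTN2 and SNORD125 were below 10 TPM in both siControl libraries and met the minimum only through siCNOT4. The minimum thus admits features that are low in siControl only if they are high in siCNOT4. ATP6V0D1, a subunit of the vacuolar proton pump, was at 51.2 and 48.2 TPM in siControl and at 99.7 and 114.7 TPM in siCNOT4. For MALAT1 they were HNRNPM (distance 0.0131), DUSP5, MTCH1, MCRS1 and TIAL1. HNRNPM, a splicing regulator that is also among the paraspeckle proteins below, was at 265 and 236 TPM in siControl and at 283 and 312 TPM in siCNOT4. For NONO they were LARP1 (distance 0.0216), EBF3, CDC42EP3, FEM1A and PRAF2. LARP1, an RNA-binding protein of ribosomal protein mRNAs, was at 201 and 124 TPM in siControl and at 179 and 190 TPM in siCNOT4. These are likenesses over 4 libraries only.

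Other genes of the same biology were then counted in 7 lists (RBM7 stands in 2 of them, and so does RELA), under the limma test with Benjamini-Hochberg adjustment over all features, in which 11.3% of features were called higher and 1.3% lower. Of 38 other paraspeckle proteins, 36 were tested, and 2 rose, 1 fell and 33 did not pass. The list's median log2 fold change was 0.23, against 0.50 over all features, and 11 lay above that median and 25 below. ZC3H6, a CCCH zinc finger protein, was low, at 1.58 and 0.607 TPM, and rose to 6.81 and 5.96 TPM (1.86, SE 0.29, limma adjusted p 0.0259). ZNF24, a zinc finger transcription factor, rose from 62.8 and 32.4 TPM to 128.3 and 116.5 TPM (1.42, SE 0.31, limma adjusted p 0.0439). The call for ZNF24 was lost without siCNOT4 replicate 1, with no filter on low values, with the minimum raised to 5 TPM, with a pseudocount of 0.1 and under TMM scaling. The call for ZC3H6 was lost with that pseudocount and with no filter. The list had 28 calls without siControl replicate 1, 21 without siControl replicate 2 and 1 without siCNOT4 replicate 1, where 79.6%, 57.5% and 3.27% of all features were called. By direction it was 1 higher and 5 lower under TMM scaling, and 2 higher and 5 lower under quantile normalization. Over all features TMM called 559 higher and 812 lower of 14117, and quantile normalization 1010 higher and 1169 lower of 14208.

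**Figure D3:**
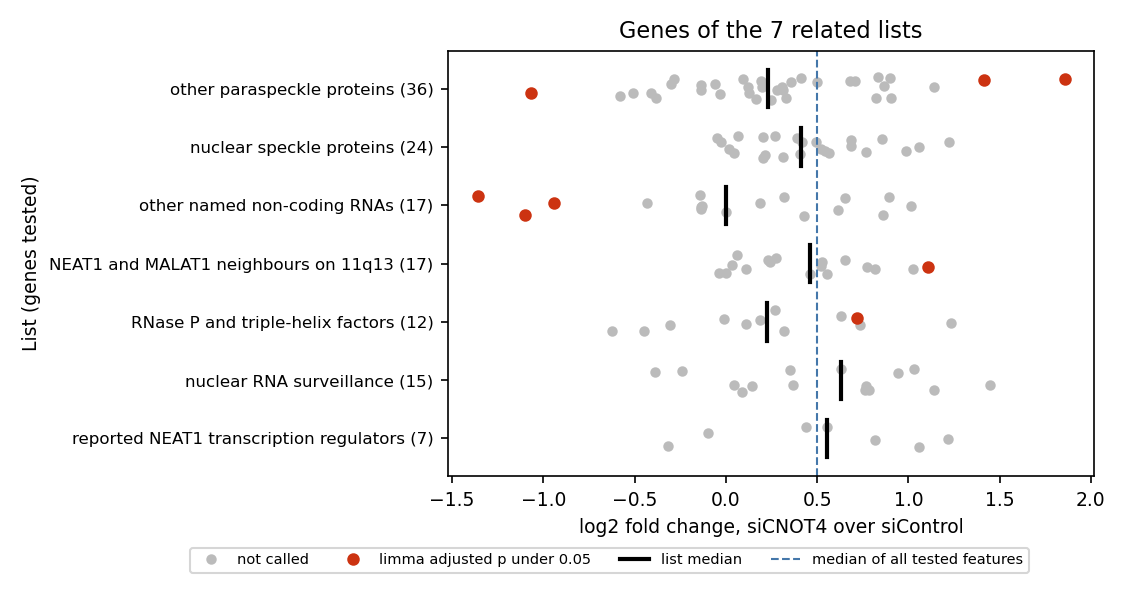
Log2 fold changes of siCNOT4 over siControl on the log2(TPM + 1) scale for the tested genes of the 7 lists, 1 point per gene; red points have a limma adjusted p under 0.05, black bars are list medians and the dashed line is the median of all tested features (0.50). The 3 red points among the other named non-coding RNAs lie at -1.36, -1.10 and -0.94.

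Among 26 other named non-coding RNAs, 17 were tested, 3 fell and none rose. The median log2 fold change was 0.00057, and 5 lay above the median of all features and 12 below. GAS5, a host of small nucleolar RNAs (snoRNAs) whose spliced RNA is degraded by nonsense-mediated decay, fell from 974 and 1211 TPM to 459 and 389 TPM (-1.36, SE 0.16, limma adjusted p 0.0228). SNHG1, another such host, fell from 203 and 236 TPM to 112 and 115 TPM (-0.94, SE 0.15, limma adjusted p 0.0272). EPB41L4A-AS1, also a snoRNA host, fell from 101 and 136 TPM to 56.9 and 51.4 TPM (-1.10, SE 0.21, limma adjusted p 0.0335). DANCR, another snoRNA host of the list, named after its values were seen, was at 71.4 and 62.8 TPM in siControl, overlapped between the groups and did not pass (-0.14, limma adjusted p 0.579). EPB41L4A-AS1 is an antisense gene, and without a stated strand setting its reads may not be separable from those of EPB41L4A. GAS5 passed under all 10 alternatives. EPB41L4A-AS1 lost its call also with a pseudocount of 0.1, with no filter and with the minimum raised to 5 TPM. The list had 10 calls without siControl replicate 1 (79.6% of all features), 8 without siControl replicate 2 (57.5%), and 1 without either siCNOT4 replicate (3.27% and 3.17%), when the calls for SNHG1 and EPB41L4A-AS1 were lost.

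Of 18 neighbours of NEAT1 and MALAT1 on 11q13, 17 were tested and 1 rose. SLC25A45, a mitochondrial carrier family member, was at 2.43 and 1.73 TPM in siControl and at 5.25 and 5.96 TPM in siCNOT4 (1.11, SE 0.25, limma adjusted p 0.0439). The median over the list was 0.46, close to that of all features, with 8 above and 9 below it. SLC25A45 was called under 3 of 9 alternatives. Without either siCNOT4 replicate the list had 0 calls, and it had 12 without siControl replicate 1 and 6 without siControl replicate 2, where 79.6% and 57.5% of all features were called.

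Among the 12 RNase P subunits and end-processing or triple-helix factors, all tested, 1 rose. POP4, a protein subunit of RNase P, was at 78.8 and 90.3 TPM in siControl and at 141 and 138 TPM in siCNOT4 (0.72, SE 0.16, limma adjusted p 0.0441). The list's median was 0.23, and 4 lay above the median of all features and 8 below. Without either siCNOT4 replicate it had 0 calls, and it had 8 without siControl replicate 1 and 6 without siControl replicate 2, where 79.6% and 57.5% of all features were called. Under TMM scaling 0 were higher and 2 lower, where 559 and 812 of all 14117 features were. Under quantile normalization 1 was higher and 1 lower, where 1010 and 1169 of all 14208 features were. POP4 was called under 3 of 10 alternatives, with a log2 fold change of 0.12 to 0.82 over them.

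No gene passed the limma test in the remaining 3 lists, where the count at an unadjusted p under 0.05 is to be read against 42.0% of all features. Of 24 nuclear speckle proteins, 8 had an unadjusted p under 0.05, the median was 0.41, and the extremes were SON, a speckle scaffold protein (1.22, SE 0.37, limma adjusted p 0.0671), and U2AF2, a splicing factor (-0.05, limma adjusted p 0.855). Of 15 factors of nuclear RNA surveillance, which recruit or form the nuclear exosome, 6 had an unadjusted p under 0.05 and the median was 0.63. There ZFC3H1, which links poly(A) RNA to the exosome, was at 18.0 and 8.25 TPM in siControl and at 34.5 and 35.9 TPM in siCNOT4 (1.45, SE 0.37, limma adjusted p 0.0539), and PABPN1, the nuclear poly(A)-binding protein, had -0.39 (limma adjusted p 0.123). Of 7 reported regulators of NEAT1 transcription, 2 had an unadjusted p under 0.05 and the median was 0.55. EPAS1, a hypoxia-inducible factor, had 1.22 (SE 0.40, limma adjusted p 0.0793) and HSF1, the heat shock factor, -0.32 (limma adjusted p 0.257). Without siControl replicate 1 these 3 lists had 16, 14 and 6 calls, and without siControl replicate 2 they had 10, 7 and 5, where 79.6% and 57.5% of all features were called.

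The fold changes of the 7 features were also computed under 11 alternatives. No filter, a mean TPM of at least 5 and the replicate block cannot change a feature's own fold change. The block also leaves the median of all features unchanged. The counts out of 11 below therefore include repeats of the main values. NEAT1 ranged from 0.55 to 1.33 and MIR612 from 2.09 to 3.50 on the log2 scale, and both stayed above 0 and above the median of all features in each. MALAT1 ranged from -0.32 to 0.34 and lay below the median in all 11. PSPC1 ranged from -0.62 to 0.06 and likewise lay below it in all 11. NONO (-0.38 to 0.56), SFPQ (-0.43 to 0.31) and RBM14 (-0.19 to 0.64) were below it in 10 of 11 each.

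**Figure D4:**
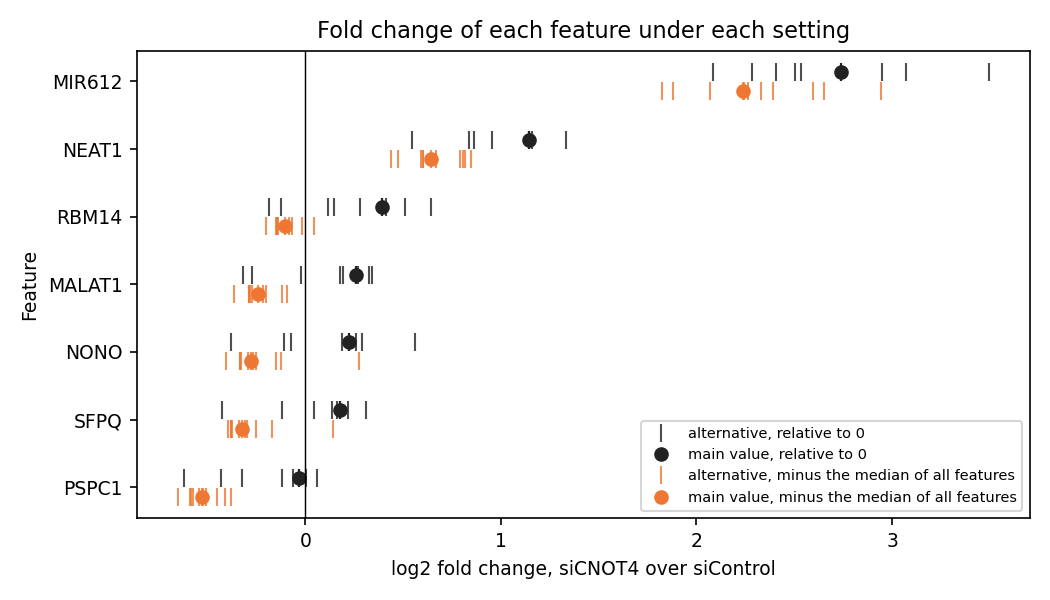
Log2 fold change of siCNOT4 over siControl for each feature as reported (large points) and under the 11 alternatives (ticks), relative to 0 (black) and minus the median of all features (orange). NEAT1 and MIR612 stay to the right of 0 on both scales, and MALAT1 and PSPC1 stay to the left of 0 on the scale relative to the median.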

How the data were processed

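Poly(A)-selected, stranded RNA-seq libraries of HEK293 cells were made from 2 siControl and 2 siCNOT4 samples. The authors deposited 1 table per library with a TPM value for each of 20457 features, without counts, scaled to a total of 1000000 per library. The submitters' processing notes name FastQC 0.11.2, STAR 2.5.3a, featureCounts and the build hg19, and the annotation, strand setting and treatment of overlapping genes are not given in the sources used here.

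Groups were taken from the labels. Values were transformed to log2(TPM + 1), features averaging at least 1 TPM were kept (14208), and the comparison used limma 3.58.1 under R 4.3.3, lmFit and eBayes with a trend, 2 libraries against 2, no covariates, with Benjamini-Hochberg adjustment and a threshold of 0.05. The pseudocount makes fold changes of low features too small. The labels do not say that replicates came from separate cultures, so p-values measure only the spread between these samples.

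The members and lists were chosen with earlier results of these data known. Named were all 7 members, every called gene of a list (or its extremes where none was called), and the 5 nearest profiles to NEAT1, MALAT1 and NONO, except that 1 called gene is not reported here by name. Reads were recovered from whole-number ratios of TPM with hairpin lengths, per library, at a search limit of 60000 reads and a length tolerance of 0.01 nt. A feature counted as resolved only if some multiple of the smallest solution gave a whole length. Of the resolved features, 95.1% did so at the smallest solution itself. Alternatives were a pseudocount of 0.1, no filter, a mean TPM of at least 5, TMM and quantile scaling, a replicate block and leaving out each library. TMM here means a trimmed mean of log2 ratios between libraries, without weights and computed on TPM rather than counts. Scaling per 1000000 recovered reads, with a pseudocount of 0.05, was added after seeing the data. RefSeq windows of GRCh38.p14 and GENCODE 29 distances describe the annotation only, since the deposited values were made on hg19.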

Additional observations from a re-analysis of the deposited data

How the results depend on the processing

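With 2 libraries a group, the counts of calls depended on the processing. Of 1792 calls, 1608 were higher and 184 lower in siCNOT4, against 559 and 812 under TMM scaling and 1010 and 1169 under quantile normalization, which brought the median of all features to -0.05 and 0.02. The total was 558 with a pseudocount of 0.1, 908 with no filter, 147 at a mean TPM of at least 5, and 450 to 11311 leaving out each library, where the lone sample of a group is assumed to vary like the other group. The cause was not tested.

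In the order other paraspeckle proteins, nuclear speckle proteins, other non-coding RNAs, 11q13 neighbours, RNase P factors, surveillance factors and NEAT1 regulators, the calls were 3, 0, 3, 1, 1, 0 and 0. Leaving out each library gave 1 to 28, 0 to 16, 1 to 10, 0 to 12, 0 to 8, 0 to 14 and 0 to 6. The paraspeckle proteins had 1 call with a pseudocount of 0.1, 0 with no filter or a mean TPM of at least 5, 6 under TMM (1 higher, 5 lower) and 7 under quantile normalization (2 higher, 5 lower). The 11q13 neighbours had 0 calls under all 5 of these settings. RNase P factors had 0 with the pseudocount and both filters, 2 under TMM (both lower) and 2 under quantile normalization (1 higher, 1 lower). Quantile normalization gave 1 speckle protein (higher), 3 surveillance factors (1 higher, 2 lower) and 1 NEAT1 regulator, and TMM 1 NEAT1 regulator, lower in both. These are to be read against 559 higher and 812 lower of 14117 features under TMM, and 1010 and 1169 of 14208 under quantile normalization.

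The replicate numbers share no stated origin, and replicate differences of the groups correlated at 0.171 across 14208 features, with 2 pairs only, so the numbers were not taken to pair the samples. A replicate block gave 3655 calls among 14208 features, 3342 higher and 313 lower. In the lists it gave 9 of 36, 6 of 24, 5 of 17, 2 of 17, 2 of 12, 5 of 15 and 2 of 7 tested genes. Nothing is read from these list counts.

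The log2 fold change of NEAT1 (1.14) was 0.55 under TMM, 0.84 under quantile normalization and 0.86 per 1000000 recovered reads. MIR612 (2.74) had 3.50 with a pseudocount of 0.1, 2.28 under TMM and 2.09 under quantile normalization. MALAT1 (0.26) had -0.32, -0.27 and -0.025 under TMM, quantile normalization and recovered reads. The 1 and 2 siControl reads limit the precision of every MIR612 ratio.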
